A study of Mus musculus with 5 samples.

Results

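The 32 genes described here carry out antigen processing and presentation by the major histocompatibility complex (MHC), and were measured in lymphatic endothelial cells (LECs) of mouse lymph nodes. They were taken by name from the 27843 genes of the count table. 19 belong to the class I route, 12 to the class II route, and Cd1d1, which presents lipids, is given apart. All 32 had an entry in the table and all 32 passed the filter on low counts that left 15874 genes for testing.

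Every mouse was 8 weeks old and on a C57BL/6 background, and both groups carried Rankl flox/flox, a conditional allele of the gene for the cytokine RANKL. The 3 control libraries came from mice with that allele alone. The 2 knockout libraries came from mice that also carried Ccl19 Cre, which deletes RANKL in Ccl19-expressing stroma and not in the LECs themselves. LECs were sorted as cells without CD45 and TER119 that carried CD31 and podoplanin, and the number of animals behind a library is not given, so p-values measure the spread between these libraries. The comparison of knockout with control asks how LEC transcripts differ when stroma lacks RANKL. Tnfsf11, the gene for RANKL, was at 0.38 CPM (reads scaled to library size) or less in every library, too low in these cells to check the labels. All differences below are log2 fold changes, knockout minus control, from edgeR's quasi-likelihood F test, and a gene passed when its Benjamini-Hochberg p over all tested genes was under 0.05.

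Class I molecules are made by nearly all nucleated cells and show peptides from cytosolic proteins to CD8 T cells. Proteasomes cut the proteins, the TAP transporter carries the peptides into the endoplasmic reticulum, and chaperones load them onto a heavy chain paired with beta-2 microglobulin. Class II molecules show peptides from endosomes to CD4 T cells and are chiefly made by dendritic cells, B cells and macrophages, with the invariant chain and the DM molecules controlling which peptide is bound. Lymph node LECs are known to present self antigens on class I, and to carry low amounts of class II.

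Of the 32 genes, 19 lie within 3.36 megabases of chromosome 17 (33915899 to 37274484, mm10), in and around the H2 complex. Promoter windows from RefSeq (GRCm38.p6, 250 bases before the start of transcription) matched 25 members, 16 of class I and 9 of class II. The 180 bases before the start are shown for 6 of them, 5′ to 3′ on the gene's strand, because these encode chains of each route and include the one class II gene that passed the test. The RefSeq starts of H2-D1 and H2-DMb1 lie 364 and 119 bases from the annotated gene starts. Among the other windows counted, those of Tapbp, H2-DMa and H2-DMb2 lie furthest from them, at 3579, 3291 and 1942 bases. Capitals mark the letters searched for on both strands: ATTGG, the core of the Y box that NF-Y binds; GGGATTCCC, a kappa B stretch; TTTCACTTC, part of an interferon-stimulated element; and AACTGATGATGCT, at the X box, the longest stretch shared by the H2-Eb1 and H2-DMb1 windows. These 4 sets of letters do not overlap in the windows shown.
H2-Aa (chr17:34287824-34288003, minus strand): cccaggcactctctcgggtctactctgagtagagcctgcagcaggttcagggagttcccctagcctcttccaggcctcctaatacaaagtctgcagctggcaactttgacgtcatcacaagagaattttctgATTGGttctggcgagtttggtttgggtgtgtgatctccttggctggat
H2-Eb1 (chr17:34305687-34305866, plus strand): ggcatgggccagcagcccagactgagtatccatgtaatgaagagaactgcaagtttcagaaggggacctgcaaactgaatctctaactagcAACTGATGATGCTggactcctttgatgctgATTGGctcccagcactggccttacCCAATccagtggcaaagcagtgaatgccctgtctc
H2-DMb1 (chr17:34153011-34153190, plus strand): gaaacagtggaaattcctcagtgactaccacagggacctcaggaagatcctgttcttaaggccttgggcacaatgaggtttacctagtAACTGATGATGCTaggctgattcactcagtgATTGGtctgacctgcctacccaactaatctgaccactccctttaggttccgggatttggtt
H2-K1 (chr17:34000348-34000527, minus strand): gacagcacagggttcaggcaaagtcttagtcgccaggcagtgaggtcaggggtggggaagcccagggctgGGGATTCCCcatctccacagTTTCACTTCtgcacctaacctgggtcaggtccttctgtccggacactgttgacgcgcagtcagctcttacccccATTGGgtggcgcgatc
H2-D1 (chr17:35262914-35263093, plus strand): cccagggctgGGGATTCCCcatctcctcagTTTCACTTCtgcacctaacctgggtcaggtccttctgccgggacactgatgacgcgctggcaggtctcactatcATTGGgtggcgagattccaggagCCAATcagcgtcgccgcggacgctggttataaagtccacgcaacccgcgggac
B2m (chr2:122147507-122147686, plus strand): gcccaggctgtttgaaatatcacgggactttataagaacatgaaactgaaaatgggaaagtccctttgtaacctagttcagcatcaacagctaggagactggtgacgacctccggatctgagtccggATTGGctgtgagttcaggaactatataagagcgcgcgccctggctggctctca

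ATTGG stood in 13 of the 16 class I windows and 6 of the 9 class II windows, against 33.8% of all 32851 windows of 250 bases. The kappa B stretch stood in 3 class I windows, those of H2-K1, H2-D1 and H2-Q7, in 0 of 9 class II windows and in 0.301% of all. TTTCACTTC stood in 5 class I windows, those of H2-K1, H2-D1, H2-M3, H2-Q4 and H2-Q7, in 0 class II windows and in 0.402% of all. The X box stretch was taken from the windows of H2-Eb1 and H2-DMb1, so its presence there is no finding; of all windows, 2 (0.00609%) held it. The other motifs were picked after the letters were seen, and several matching windows belong to class I genes that resemble each other. The shares of all windows therefore give no test of them. No binding was measured, so these matches describe letters alone.

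Class I transcripts were among the most abundant in these cells. Levels between genes are compared per length, as CPM per kilobase of annotated exon. By that measure B2m, the light chain shared by all class I molecules, ranked 1 in controls, at 4468 ± 62.6 CPM per kilobase (SD, n = 3). Ranks are among the tested genes that had an annotated exon length. By CPM alone, over all 15874 tested genes, B2m ranked 14, H2-D1 2 and H2-K1 5. The classical heavy chain gene H2-D1 ranked 2, at 3753 ± 157, and H2-K1, the other one, ranked 6, at 2000.2 ± 41.5. The nonclassical chain genes were lower, H2-Q7 at 354 ± 28 and H2-T23, which encodes the Qa-1 molecule, at 231 ± 16.4. H2-M3, whose product binds formylated peptides, stood at 84.8 ± 8.25 and H2-Q4 at 19.5 ± 2.33.

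**Figure D1:**
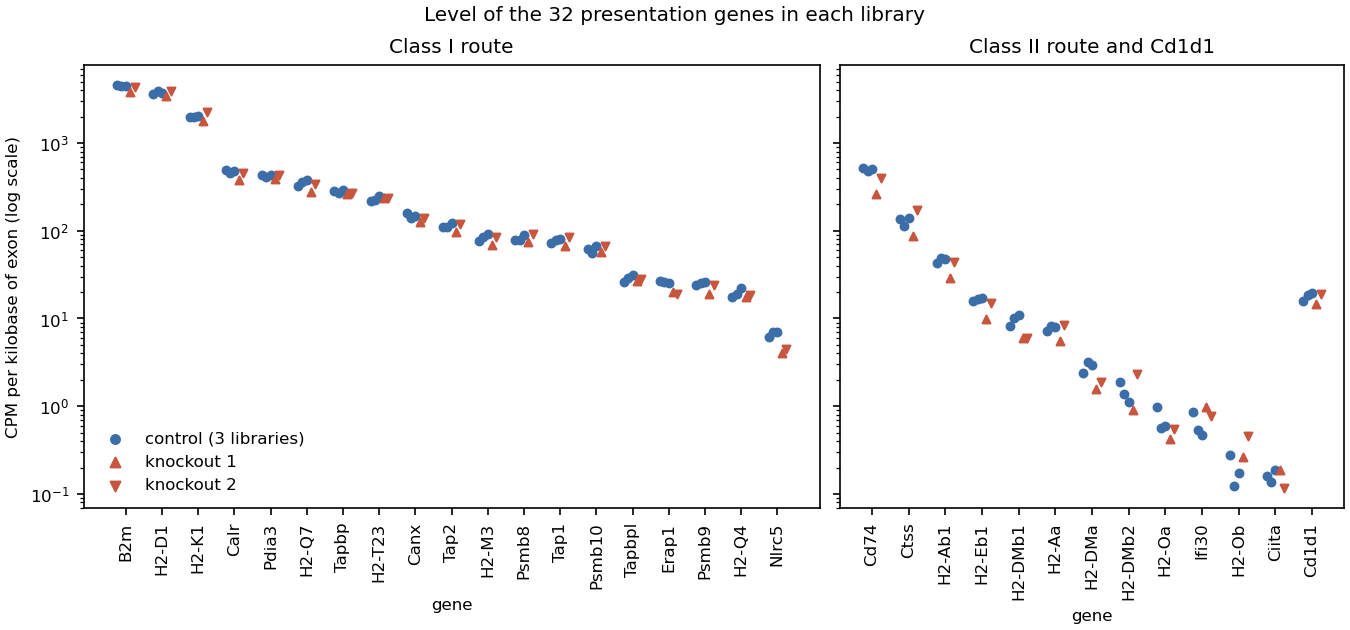
CPM per kilobase of exon (vertical axis, log scale) of the 19 class I genes (left) and the 12 class II genes with Cd1d1 (right), ordered by control mean, 1 point per library (circles, 3 controls; triangles, knockouts 1 and 2). B2m leads at 4468 in controls and Ciita is lowest at 0.161, and the control and knockout points of most class I genes lie together.

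In knockouts the class I chains stayed close to the control levels, and 0 of the 7 chain genes passed the test. H2-D1 (chromosome 17, 35262730 to 35267499) stood at 9272, 10081 and 9683 CPM in control libraries 1, 2 and 3, and at 8926 and 10190 CPM in knockout libraries 1 and 2. The knockouts bracketed the controls, and the log2 fold change, knockout minus control, was -0.02 ± 0.13 (SE). H2-K1 (33996017 to 34000347) stood at 5871, 5758 and 6001 CPM in controls and at 5265 and 6604 CPM in knockouts (log2 fold change 0.01 ± 0.14), again with knockouts on both sides of the controls. B2m (chromosome 2, 122147686 to 122153083) stood at 3901, 3831 and 3795 CPM in controls and 3288 and 3747 CPM in knockouts. Both its knockout values lay below the controls, by a margin smaller than the gap between the knockouts, and the log2 fold change was -0.13 ± 0.11. H2-T23 (0.03 ± 0.10), H2-M3 (-0.14 ± 0.13), H2-Q4 (-0.12 ± 0.12) and H2-Q7 (-0.21 ± 0.14) overlapped between the groups.

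Reads of these chains are not fully separable, because class I genes resemble each other and, for H2-Q4, because another gene overlaps it. Of all 50-base stretches, the length of a read, in the annotated transcripts, 9.63% of those of H2-K1 and 12.8% of those of H2-D1 also occur in transcripts of other genes. The share was 26.4% for H2-Q7, mostly with H2-Q10, H2-Q5 and H2-Q6, and 36.4% for H2-Q4, against 0 for B2m. The largest sharer of H2-Q4 was Gm11131 (15.3%), which overlaps 19.1% of its exon bases on the opposite strand. H2-Q6 shared 9.68%. How the counting treated such reads is not given, so the levels of H2-Q4 and H2-Q7 are uncertain.

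The genes that feed and load class I were likewise near their control levels, apart from Erap1. Tap1 and Tap2, both subunits of the peptide transporter, had log2 fold changes of -0.02 ± 0.12 and -0.08 ± 0.12. Tapbp (tapasin), which bridges TAP to the heavy chain, was at -0.08 ± 0.10, and the tapasin-related editor Tapbpl at -0.06 ± 0.10. The chaperones Calr (-0.18 ± 0.12), Canx (-0.14 ± 0.11) and Pdia3 (-0.06 ± 0.11) did not pass either, at 1370 ± 60.5, 693 ± 45.6 and 1338 ± 35.4 CPM in controls (SD, n = 3).

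Erap1, the aminopeptidase that trims peptides in the endoplasmic reticulum (chromosome 13, 74639568 to 74693201), fell in knockouts. It stood at 196, 188 and 186 CPM in controls and at 146 and 138 CPM in knockouts. The groups did not overlap and the knockout libraries were alike. The log2 fold change was -0.42 ± 0.08 (SE; edgeR, Benjamini-Hochberg adjusted p = 0.0356). Exon bases shared with the antisense neighbour Cast make up 11.5% of its length, and these kits do not mark strand, so reads there cannot be told apart. The call was lost when any control or knockout 2 was left out (-0.44 to -0.38), and when GC content and exon length were corrected for (-0.31).

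The immunoproteasome subunits, which replace the constitutive catalytic subunits and favour peptides that fit class I, did not pass. Psmb8 was at 0.01 ± 0.12 and Psmb10 at -0.00 ± 0.11 on the log2 scale. Psmb9 stood at 88.2, 93.1 and 94.9 CPM in controls and at 70.2 and 87.3 CPM in knockouts, so both knockouts lay below the controls, knockout 2 narrowly (log2 fold change -0.23 ± 0.11). Set per length against Psmb6, the constitutive subunit it replaces, Psmb9 stood at a ratio of 0.433, 0.428 and 0.416 in controls and 0.296 and 0.354 in knockouts. The ratio of Psmb8 to Psmb5 (1.05 to 1.21 in controls, 0.793 and 1.15 in knockouts) and that of Psmb10 to Psmb7 (2.30 to 2.67, and 2.33 and 2.59) overlapped. These ratios were not tested.

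Nlrc5, the transactivator of class I genes (chromosome 8, 94434356 to 94527272), fell most among the class I members. Its values were 52.2, 59.1 and 59.9 CPM in controls and 33.9 and 37.7 CPM in knockouts. Knockouts 1 and 2 were thus at 59.5% and 66.1% of the control mean, well apart from the lowest control at 91.5%. The log2 fold change was -0.67 ± 0.10 (SE; edgeR, Benjamini-Hochberg adjusted p = 0.0204). It kept its call without control 1, and lost it without control 2 (-0.65), without control 3 (-0.64) and with the same correction (-0.50). The fold change was -0.60 without knockout 1 and -0.75 without knockout 2.

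Counted over the class I route, 0 of 19 genes rose and 2 (10.5%) fell, where 3.25% and 3.99% of all tested genes did so (7.24% in either direction). The same 2 genes were lower, and 0 higher, with DESeq2 (10.1% of all genes lower) and with limma-voom (4.14%). At an unadjusted p under 0.05 there were 2 lower and 0 higher, beside 13.6% and 12.8% of all genes. In 4 of the 19 (21.1%), B2m, Erap1, Psmb9 and Nlrc5, both knockouts lay below all controls. That share was near the 22.5% of all tested genes. In 0 of the 19 both lay above all controls, where 22.8% of all tested genes did. Log2 fold changes were negative for 16 of the 19, beside 7950 of all 15874 tested genes. The median log2 fold change was -0.08, beside -0.00 over all tested genes. Knockout 1 was below knockout 2 in 18 of the 19, Erap1 being the exception, where it was below in 48.9% of all tested genes.

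**Figure D2:**
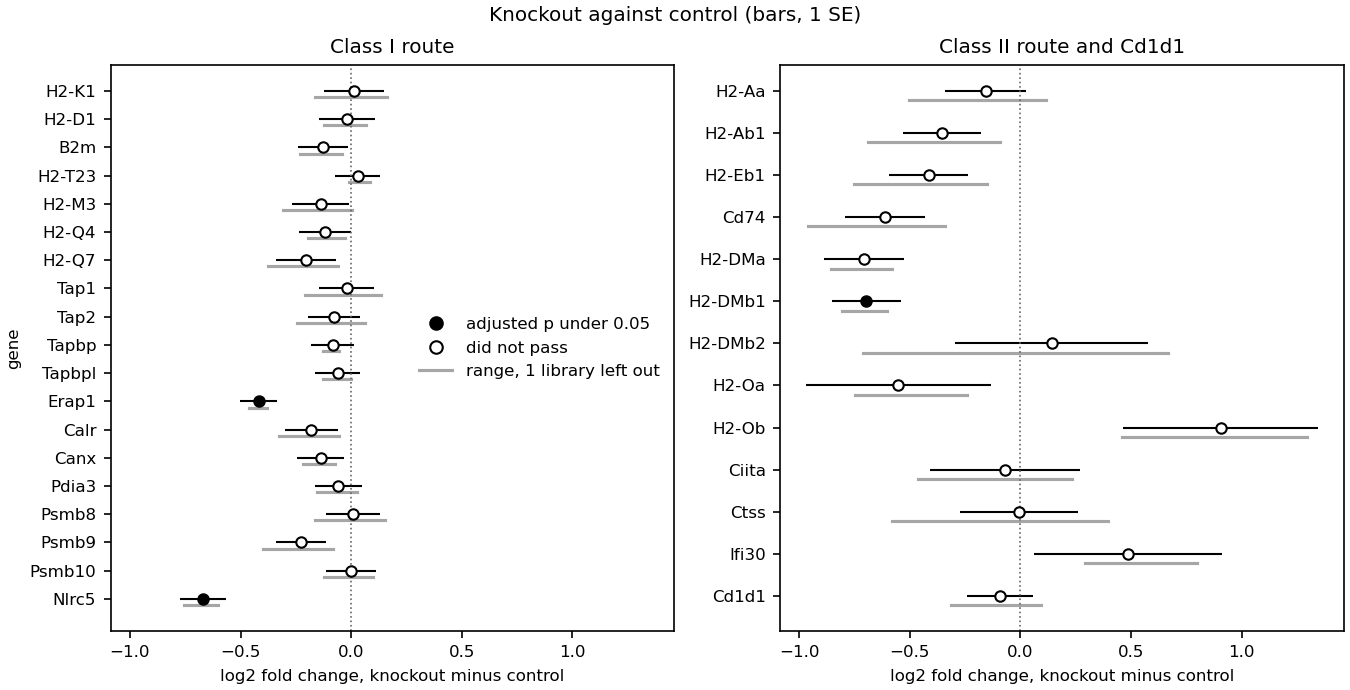
Log2 fold change, knockout minus control (horizontal axis), of each member, with bars of 1 SE and, in grey, the range with 1 library left out. Filled points passed an adjusted p of 0.05 over all genes: Nlrc5 and Erap1 on the left and H2-DMb1 on the right. Cd74 (-0.61), H2-DMa (-0.71) and, on the positive side, H2-Ob (0.90) did not pass.

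Class II transcripts were present at lower levels, with the invariant chain far above the chains it escorts. Cd74, the invariant chain, stood at 504 ± 20.9 CPM per kilobase in controls (SD, n = 3) and ranked 70 by that measure, and 174 of 15874 by CPM alone. The chain genes H2-Ab1, H2-Eb1 and H2-Aa stood at 46.7 ± 3.17, 16.5 ± 0.688 and 7.85 ± 0.562. Per length, H2-K1 was 39.6 to 46.2 times H2-Ab1 in the controls, and 61.7 and 51.1 times in knockouts 1 and 2. Ciita, the transactivator of class II genes, was near the low end, with 108, 81 and 93 reads in controls (1.54 ± 0.246 CPM).

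The class II chains were lower in knockout 1 than in any other library. H2-Ab1 (chromosome 17, 34257689 to 34269419) stood at 111, 127 and 122 CPM in controls and at 74.6 and 113 CPM in knockouts 1 and 2. Knockout 2 lay within the control range, and the log2 fold change was -0.35 ± 0.17 (SE). H2-Aa (34282744 to 34287823) stood at 27.4, 31.4 and 30.6 CPM in controls and 21.1 and 32.4 CPM in knockouts, the second above every control (-0.16 ± 0.18). H2-Eb1 (34305867 to 34316674) stood at 30.6, 32.7 and 33.1 CPM in controls and 19.1 and 29.1 CPM in knockouts, both below the controls (-0.42 ± 0.18). None of the 3 passed with all libraries. H2-Ab1 and H2-Eb1 stood at -0.69 and -0.75 without knockout 2, and at -0.09 and -0.15 without knockout 1.

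Ratios between the chains varied little within each group. The ratio of H2-Ab1 to H2-Aa, per length, was 5.88 to 6.00 in the controls and 5.24 and 5.16 in knockouts 1 and 2, so the knockouts lay together and below. H2-Eb1 stood at 0.340 to 0.364 of H2-Ab1 in controls and at 0.339 and 0.340 in knockouts. These ratios were not tested, and their size depends on the exon lengths used.

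Cd74 (chromosome 18, 60803848 to 60812652) was lower in both knockouts, and by different amounts. Its values were 877, 808 and 855 CPM in controls and 436 and 672 CPM in knockouts 1 and 2, which is 51.5% and 79.3% of the control mean. The groups did not overlap, but the knockouts were further from each other than the controls were. The log2 fold change was -0.61 ± 0.18 and did not pass (SE; edgeR, Benjamini-Hochberg adjusted p = 0.089). It was -0.34 without knockout 1 and -0.96 without knockout 2, and it passed with DESeq2 (-0.61).

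The DM molecule, a heterodimer of H2-DMa with a beta chain from H2-DMb1 or H2-DMb2, trades the invariant chain's remnant for peptide. H2-DMb1 (chromosome 17, 34153072 to 34160230) fell, and was the one class II member that passed. It stood at 13.8, 16.9 and 18.5 CPM in controls and at 10.2 and 10.0 CPM in knockouts. The knockouts were alike and below all controls, at a log2 fold change of -0.70 ± 0.16 (SE; edgeR, Benjamini-Hochberg adjusted p = 0.0467). The call was lost with any 1 library left out, control or knockout, at fold changes of -0.81 to -0.60, with library totals alone as scaling (-0.69) and with limma-voom (-0.67). Of its 50-base stretches, 22.7% also occur in H2-DMb2, so part of its reads could belong to that gene.

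H2-DMa (34119541 to 34139101) stood at 8.33, 10.9 and 10.3 CPM in controls and at 5.44 and 6.60 CPM in knockouts, both below the controls. Its log2 fold change of -0.71 ± 0.18 did not pass (SE; edgeR, Benjamini-Hochberg adjusted p = 0.063), and 10.4% of its exon bases overlap Brd2 on the other strand. H2-DMb2 had 236, 150 and 102 reads in controls and 86 and 238 in knockouts, so knockouts 1 and 2 lay at the opposite ends of the range (0.14 ± 0.44).

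H2-Oa and H2-Ob form the DO molecule, an inhibitor of DM, and were near 1 CPM. H2-Oa had 99, 49 and 44 reads in controls and 33 and 45 in knockouts (log2 fold change -0.55 ± 0.42). H2-Ob had 107, 41 and 48 reads in controls and 78 and 142 in knockouts (0.90 ± 0.44), the largest positive value among the members. It did not pass, and control 1 lay above knockout 1 on the CPM scale (1.51 against 1.42 CPM). Ciita had 99 and 65 reads in knockouts, overlapping the controls (-0.07 ± 0.34).

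The lysosomal members went with neither group. Ctss, the cathepsin that degrades the invariant chain, stood at 186, 152 and 192 CPM in controls and at 119 and 233 CPM in knockouts, so that knockout 1 was the lowest library and knockout 2 the highest. Its log2 fold change was -0.01 ± 0.27. Ifi30, the thiol reductase GILT, had 24 to 60 reads in all libraries (0.49 ± 0.42). Cd1d1, which presents lipids to NKT cells, stood at 40.7, 47.4 and 50.3 CPM in controls and at 37.2 and 49.3 CPM in knockouts (-0.09 ± 0.15).

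**Figure D3:**
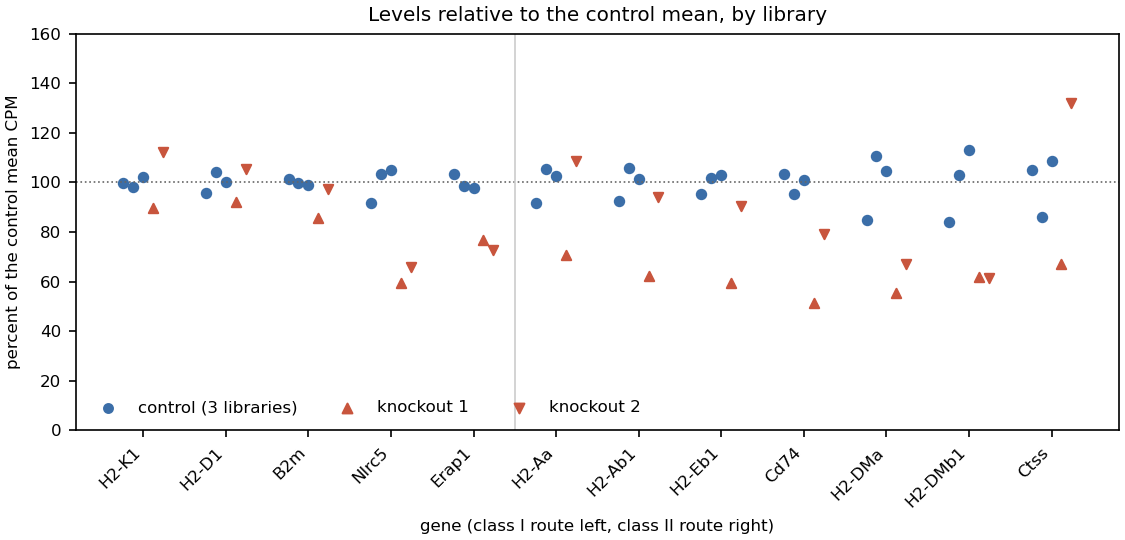
CPM as percent of the control mean (vertical axis) for 5 class I and 7 class II genes, 1 point per library (circles, controls; triangles, knockouts). H2-K1 and H2-D1 stand on both sides of 100, Nlrc5, Erap1 and H2-DMb1 have both knockouts together and below the controls, and the class II chains, Cd74 and Ctss have knockout 1 far below knockout 2.

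Over the class II route, 0 of 12 genes rose and 1 (8.33%) fell, where 3.25% and 3.99% of all tested genes did so. The median log2 fold change was -0.26, beside -0.00 over all tested genes. DESeq2 called 3 lower (Cd74, H2-DMa and H2-DMb1) and 0 higher, where it called 10.1% of all genes lower and 8.37% higher. With limma-voom 0 passed, against 4.14% lower and 3.44% higher of all genes. At an unadjusted p under 0.05 there were 3 lower and 0 higher, beside 13.6% and 12.8% of all genes. In 5 of the 12 (41.7%; H2-Eb1, Cd74, H2-DMa, H2-DMb1 and H2-Oa) both knockouts lay below all controls, where 22.5% of all tested genes did. In 0 of 12 both lay above, where 22.8% of all genes did. The median was -0.12 without knockout 1 and -0.69 without knockout 2. The number called was 0 without each control, where 266, 173 and 11 of all genes were called without control 1, 2 and 3. A fit without 1 of the knockouts leaves a single knockout library, so its calls are not counted here.

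The gap between the knockout libraries was nearly the same for the chains and the invariant chain. Knockout 1 stood at 0.649 to 0.660 times knockout 2 for H2-Aa, H2-Ab1, H2-Eb1 and Cd74. It stood at 0.509 times for Ctss, at 0.824 for H2-DMa, at 1.01 for H2-DMb1 and at 1.62 for Ciita. Among the 8 lymphatic markers the ratio ran from 0.666 (Lyve1) to 4.42 (Reln), and it was 0.916 or more in the 7 other than Lyve1. Ratios near these also stood among the markers of other cells given below, as for Cd79a (0.628), Lyz2 (0.629), Ly6c1 (0.669) and Emcn (0.683). Knockout 1 was below knockout 2 in 7 of 8 markers of leukocytes of any kind and 7 of 8 T cell markers. It was below in 3 of 9 dendritic cell, 3 of 8 B cell and 5 of 13 macrophage markers. Of blood endothelial markers 7 of 10 were lower in knockout 1, and of fibroblastic reticular markers 0 of 9, beside 48.9% of all tested genes. In sorted pools, fewer cells of one kind and less RNA per cell cannot be told apart.

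Because class II is chiefly a leukocyte product, marker lists for other cells were read beside it. The sort leaves out CD45, and Ptprc, which encodes CD45, stood at 2.15 to 2.73 CPM in controls and 2.39 and 2.89 CPM in knockouts. Summed over 8 leukocyte markers, levels were 42.8 to 74.7 CPM in controls and 55.1 and 68.8 CPM in knockouts, mostly Cd53, and 0 of the 8 passed. In control 1, which had the highest leukocyte sum, the 3 class II chains summed to 169 CPM (191 and 185 CPM in controls 2 and 3) and all 12 class II genes to 1262 CPM (1185 and 1268 CPM).

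The 9 dendritic cell markers summed to 293 to 362 CPM in controls and 279 and 319 CPM in knockouts, nearly all of it Zbtb46, and 0 passed. Without Zbtb46 and Clec9a, a choice made after their levels were seen, the other 7 summed to 6.41 to 8.74 and to 6.77 and 10.4 CPM. The defining Itgax was at 0.304 CPM or less in every library, and Cd209a had 8, 11 and 16 reads in controls and 0 in both knockouts, all knockouts below all controls, and did not pass (edgeR, Benjamini-Hochberg adjusted p = 0.0549). The 8 B cell markers summed to 16.9 to 37.4 CPM in controls and 44.5 and 46.6 CPM in knockouts, with both knockouts above the controls, Pax5 at 0.155 CPM or less and 0 of the 7 tested passing. For the 13 macrophage markers the sum was 48 to 51.6 CPM in controls, against 42 and 40.5 CPM in knockouts 1 and 2. Mertk, the largest part of that sum, overlapped between the groups (26 to 30.9 CPM, against 28.7 and 26.6 CPM). Of the 11 tested, 1 rose and 2 fell, beside 3.25% and 3.99% of all tested genes. Log2 fold changes were negative for 8 and positive for 3. Csf1r fell (-2.58 ± 0.53), from 123, 69 and 87 reads to 20 and 8. Mpeg1 fell (-2.27 ± 0.36), from 166, 229 and 115 reads to 34 and 30. The gene that rose was Adgre1, with 0 reads in every control and 15 and 20 in knockouts. Cd163 had 0 reads in all libraries. The 8 T cell markers summed to 50.2 to 56.6 and to 48.6 and 51.1 CPM, nearly all of it Lck and Cd247, and 0 passed. Cd3e, Cd3d, Cd3g, Cd4 and Cd8a were at 1.15 CPM or less in every library, so the sum says little about them. Knockout 1 was below knockout 2 in 7 of the 8, beside 48.9% of all tested genes.

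Of 10 blood endothelial markers, 7 rose and 0 fell, beside 3.25% and 3.99% of all tested genes. Summed levels were 2574 to 2918 CPM in controls and 2996 and 3913 CPM in knockouts, mostly Plvap. Sox17 stood at 0.32 to 0.94 CPM in controls and 4.03 and 4.71 CPM in knockouts. The 9 fibroblastic reticular markers summed to 322 to 472 CPM in controls, 1060 CPM in knockout 1 and 466 CPM in knockout 2. Knockout 1 thus stood apart in that sum too, and 0 passed. Most of the knockout 1 sum was Dcn (692 CPM) and Col3a1 (213 CPM). In knockout 1 Pdgfra, Pdgfrb, Col1a1 and Col1a2 also lay above all controls, while Ccl19, Lum and Cxcl13 lay within the control range. Of 8 lymphatic markers, 1 rose (Mmrn1) and 2 fell (Prox1 and Itga9), beside 3.25% and 3.99% of all tested genes. The list summed to 10153 to 11295 CPM in controls and 11568 and 10253 CPM in knockouts, with changes both ways inside it. Mean levels went from 1375 to 4041 CPM for Mmrn1 and from 1459 to 868 CPM for Prox1. Lyve1 went from 4530 to 3051 CPM, with both knockouts below all controls, and did not pass (-0.57 ± 0.18). Of the 8, 5 had negative and 3 positive log2 fold changes. The part of these lists in the class I and class II values was not tested.

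**Figure D4:**
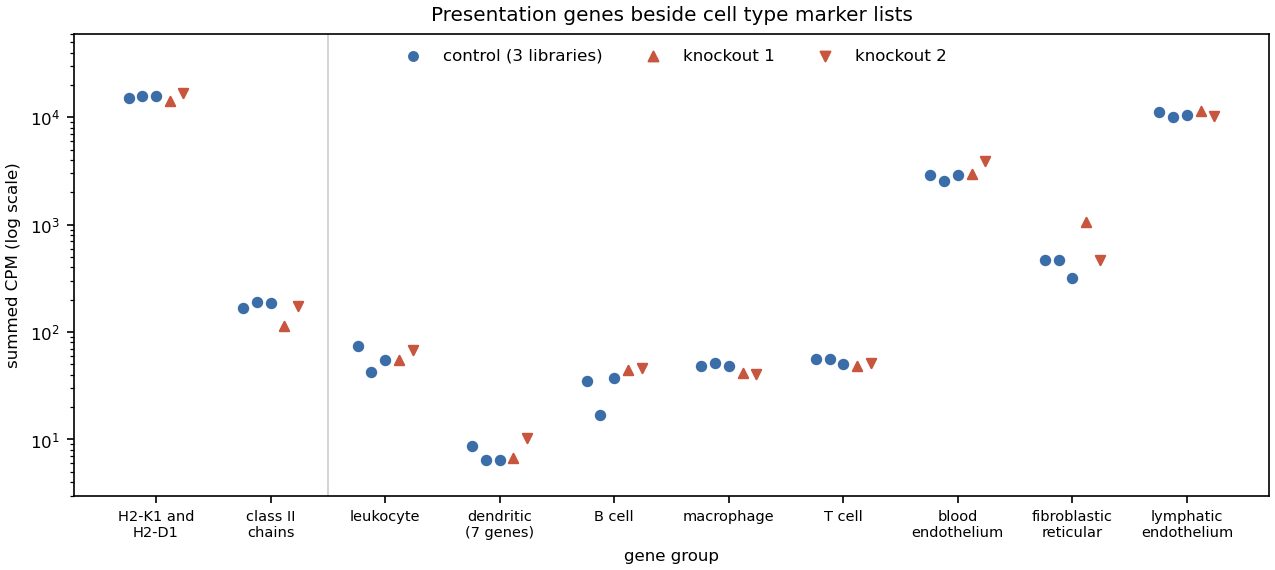
Summed CPM (vertical axis, log scale) of H2-K1 and H2-D1, of the 3 class II chains and of 8 cell type marker lists, 1 point per library (circles, controls; triangles, knockouts). The class II chains are lowest in knockout 1 (115 CPM), where the fibroblastic reticular list is highest (1060 CPM), and the B cell list is higher in both knockouts than in the controls.

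Of 75 other genes of the pathway, 73 were tested, of which 1 rose and 4 fell (1.37% and 5.48%, beside 3.25% and 3.99% of all genes). Of 12 factors that act at MHC promoters, 0 rose and 3 fell. Nfya, a subunit of the NF-Y complex that binds the Y box, fell by 0.68 ± 0.15 on the log2 scale, Creb1, which binds next to the X box, by 0.56 ± 0.09, and the acetyltransferase gene Ep300 by 0.73 ± 0.14. The other NF-Y subunits had positive values that did not pass, Nfyb at 0.58 ± 0.14 and Nfyc at 0.33 ± 0.10, and the X box factors Rfx5 (0.01 ± 0.13), Rfxap (0.02 ± 0.13) and Rfxank (0.08 ± 0.19) were near 0. Irf1 (0.20 ± 0.15), also in that list, did not pass.

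Of 16 genes on the interferon gamma route, a known inducer of Nlrc5 and Ciita, 1 rose and 0 fell. Ubd, a ubiquitin-like modifier gene, rose by 0.59 ± 0.12, from 25.4 to 31.3 CPM in controls to 45.2 and 41.2 CPM in knockouts. Values that did not pass went both ways, with Jak1 at -0.50 ± 0.12, Gbp2 at 0.27 ± 0.12 and Cxcl10 at -0.05 ± 0.13. Of 12 peptidases and chaperones of the class I route, 0 rose and the peptidase gene Nrdc fell by 0.41 ± 0.09. Among the 14 tested class I-like chains, the 7 constitutive subunits and proteasome activators, and the 12 endosomal genes, 0 passed in either direction. Each of these 5 called genes lost its call without any 1 control library, and Creb1 alone kept it without either knockout.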

How the data were processed

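Polyadenylated RNA of LECs sorted from lymph nodes was measured in 5 libraries, prepared by SMART-Seq v4 and Nextera XT and read as single 50-base reads, per the labels' protocols. The deposited values are raw read counts per Ensembl gene. HTSeq 0.6.1, Bowtie2 2.1.0, TopHat2 2.0.14, bcl2fastq 2.17.1.14 and the build mm10 are listed in the submitters' processing notes; no settings, nor the handling of reads with several matches, were given in the sources used here. GENCODE M21 on that build gave exon lengths and positions (27648 of 27843 genes matched).

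Library totals were 52839375 to 70171307 counts. Counts were filtered (filterByExpr, minimum count 10), scaled by TMM and tested with edgeR 4.0.16 in R 4.3.3 (robust quasi-likelihood F test, legacy form; all 5 libraries; Benjamini-Hochberg over 15874 genes, threshold 0.05). SE was taken as |log2 fold change| over the root of F. CPM use TMM-scaled totals. Alternatives used DESeq2 1.42.0, limma-voom 3.58.1, other scalings and filters, a threshold of 0.1, a loess offset (span 0.5) for exon length and GC, a replicate block, and each library left out. A fit without 1 of the knockouts leaves a single knockout library, so calls kept or lost in it carry no knockout replication. The members, lists and alternatives were chosen with earlier results of these data known. All members are named, and of other lists the genes that passed; the marker, promoter factor and interferon genes named without passing, and the motifs, were picked after their values or letters were seen.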

Additional observations from a re-analysis of the deposited data

How the results depend on the processing

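Of all genes, 1150 were called, and 2661 with DESeq2, 2546 at a threshold of 0.1, 746 with the exon length and GC offset, and 11 to 1736 with 1 library left out (266, 173 and 11 without control 1, 2 and 3). Class I calls numbered 2, and 0 with the offset and 0 to 2 with a library left out. Class II calls numbered 1, and 2 without a filter, 3 with DESeq2 or a threshold of 0.1, 0 with library totals or limma-voom, and 0 to 4 with a library left out. With the replicate block, 0 genes were called, 0 in class I and 0 in class II, and with block and offset together 3, 0 and 0. Numbers 1 and 2 are shared by both groups, and whether they pair the libraries is not given. Deviations from the group means correlated at 0.0477 for number 1 and -0.0515 for number 2. With 2 knockouts their deviations mirror each other, so these values cannot decide whether the numbers pair the libraries. Signs reversed with the offset for H2-K1 (-0.066), H2-T23 (-0.059), Tap1 (0.046), Psmb8 (-0.029), H2-DMb2 (-0.0066) and Ciita (0.12); with the block for Tapbpl (0.00505), Psmb10 (0.059), H2-DMb2 (-0.15) and Ciita (0.0199); with both for H2-K1 (-0.063), H2-T23 (-0.000184), Tap1 (0.063), H2-DMb2 (-0.30) and Ciita (0.25); with RLE factors for Psmb10 (0.000968); and with a minimum of 1 CPM for Psmb10 (0.00706) and Ctss (0.0027). With a library left out, log2 fold changes spanned 0 for H2-K1 (-0.16 to 0.16), H2-D1 (-0.12 to 0.069), H2-T23 (-0.00879 to 0.086), H2-M3 (-0.31 to 0.00427), Tap1 (-0.21 to 0.14), Tap2 (-0.24 to 0.062), Tapbpl (-0.13 to 0.000658), Pdia3 (-0.15 to 0.025), Psmb8 (-0.17 to 0.16), Psmb10 (-0.12 to 0.10), H2-Aa (-0.51 to 0.11), H2-DMb2 (-0.71 to 0.66), Ciita (-0.46 to 0.23), Ctss (-0.58 to 0.40) and Cd1d1 (-0.32 to 0.092). None of these genes had passed, and the cause of the changes was not tested. Depth limits H2-Oa, H2-Ob, Ciita and Ifi30, which rest on 24 to 142 reads a library.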
